A study of Mus musculus with 36 samples.

Results

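The calcium release channels of the endoplasmic reticulum are the 3 ryanodine receptors, encoded by Ryr1, Ryr2 and Ryr3, and the 3 inositol trisphosphate (IP3) receptors, encoded by Itpr1, Itpr2 and Itpr3. They were taken by gene name from the deposited table of raw counts, where they are 6 of 16614 genes. The study asked how stalled ribosomes of the developing brain depend on FMRP, the RNA-binding protein encoded by Fmr1. Whole brains of WT (C57BL/6) and FMR1 KO mice at postnatal day 5 were flash frozen, and 10 brains entered each preparation, so every value comes from pooled animals and from all cell types of the brain. The libraries of each genotype were ribosome-protected fragments (RPFs) from the pellet of a sucrose gradient, RPFs from fraction 5/6, which holds ribosome clusters that did not pellet, and RNA-seq of whole brain. The knockout is present in every cell from the start of development. RPFs were made with standard nuclease and a buffer of 10 mM MgCl2 and again with low nuclease and 2.5 mM MgCl2, and each of these preparations has its own RNA-seq libraries, which gave 12 groups of 3 libraries. Temperature, RNase dose and MgCl2 changed together between the RPF preparations and cannot be told apart. The study speaks of its replicates as biological preparations while the labels only number them, and p-values measure the spread between these libraries. The 3 RPF libraries of a group were joined after linker ligation and before reverse transcription, so an RPF group and its joint reaction cannot be told apart.

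Both families form tetrameric channels that let calcium out of the endoplasmic reticulum. IP3 receptors open when IP3, made by phospholipase C below receptors such as the group I metabotropic glutamate receptors, binds together with calcium. Ryanodine receptors open to calcium itself or, in skeletal muscle, to direct contact with a voltage-gated calcium channel. RyR1 is the skeletal muscle form, RyR2 is the form of the heart and the most abundant one in brain, and RyR3 is found at lower levels in brain and other tissues. IP3R1 is the main neuronal IP3 receptor and is very abundant in cerebellar Purkinje cells, IP3R2 is known from astrocytes and heart, and IP3R3 is known from secretory epithelia.

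The receptors share large coding sequences. In the GRCm38 annotation the longest coding sequences were 15183 nt for Ryr1 (ENSMUSG00000030592, chr7:29003344-29125179, minus strand, 106 exons), 14898 nt for Ryr2 (ENSMUSG00000021313, chr13:11553102-12106945, minus strand, 105 exons) and 14664 nt for Ryr3 (ENSMUSG00000057378, chr2:112631355-113217096, minus strand, 103 exons). The IP3 receptors had 8247 nt for Itpr1 (ENSMUSG00000030102, chr6:108213096-108551109, plus strand, 62 exons), 8103 nt for Itpr2 (ENSMUSG00000030287, chr6:146108299-146502223, minus strand, 57 exons) and 8010 nt for Itpr3 (ENSMUSG00000042644, chr17:27057304-27122223, plus strand, 58 exons). Gene spans ran from 64.9 kb for Itpr3 to 585.7 kb for Ryr3, and exons covered between 3.24% (Ryr3) and 17.92% (Ryr1) of the span.

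The part of the message that both families have in common, and that shows how far they can be told apart by short fragments, is the stretch that encodes the selectivity filter, the narrow part of the pore. Each gene held 1 such match, in the coding sequence and within 1 exon. The 30 bases around it are given 5′ to 3′ on the coding strand, from the GENCODE M21 transcripts on GRCm38, with the 6 codons of the filter in capitals.
Ryr1, chr7:29005592-29005621, minus strand: cgggccGGTGGAGGGATCGGGGACgagatc
Ryr2, chr13:11560621-11560650, minus strand: cgtgctGGAGGGGGCATTGGTGATgaaatt
Ryr3, chr2:112636625-112636654, minus strand: agagcaGGTGGAGGCATTGGTGATgaaatt
Itpr1, chr6:108518782-108518811, plus strand: cggagtGGGGGAGGGGTAGGAGACgtgctc
Itpr2, chr6:146158905-146158934, minus strand: aggaatGGCGGCGGAGTTGGGGATgtgctg
Itpr3, chr17:27118625-27118654, plus strand: aggaacGGTGGTGGCGTGGGCGACatcctc
The closest pair was Ryr2 and Ryr3, which differed at 5 of these 30 bases, and the most distant pair was Ryr2 and Itpr3, which differed at 16. Across the whole coding sequences only 22 stretches of 28 bases, about the length of an RPF, were shared over the 15 pairs of receptors. Ryr1 and Ryr2 shared 8 of them, Itpr2 and Itpr3 shared 5, and none was shared between a ryanodine and an IP3 receptor.

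RPF libraries held 6765065 to 40174168 counts in the standard and 23634940 to 62310787 in the low nuclease preparation, and RNA-seq libraries 112249206 to 147216378 and 41586791 to 141505786. In the standard RPF libraries between 36.7 and 63.4% of all counts fell on Cdk8, so levels are given as CPM, the count scaled to a common library total, with Cdk8 left out of that total. Fmr1, the targeted gene, was at 64.6 to 100 CPM in 5 of the WT RPF libraries of the standard preparation and at 4.79 to 10.7 CPM in the 6 of the FMR1 KO. Its RNA-seq level in that preparation was 60.6 to 71.9 CPM in the WT and 16.4 to 18.1 CPM in the FMR1 KO. The library labelled WT fraction 5/6 replicate 3 had 3.17 CPM of Fmr1, which goes against its label, and over 13360 genes it was most like FMR1 KO pellet replicate 3 (Spearman's rho 0.969 across genes, as a description). It was kept as labelled, and the enrichment of the receptors in the WT is given with and without it. In the low nuclease preparation 3 of the 6 RNA-seq libraries (WT replicate 2, FMR1 KO replicates 2 and 3) had 82.4 to 85.0% of their counts on 10 genes. The counts of a gene appear to cover its whole span on either strand, introns included, since in 226 of 226 gene pairs in RNA-seq and 216 of 216 in RPFs the host gene had at least the count of a gene nested in it. Of the receptors, Ryr3 overlaps another gene of the table, the cell survival gene Aven, over 3219 nt on the opposite strand.

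Markers of brain cells were present in every library. Neuron markers (5 of 5 in the table) summed to 4072 to 8669 CPM in the standard RPF libraries, astrocyte markers (4 of 4) to 234 to 525 CPM and Purkinje cell markers (3 of 3) to 76.6 to 162 CPM. The 5 skeletal muscle markers, all in the table, summed to 326 CPM in WT pellet replicate 3 and 130 CPM in FMR1 KO pellet replicate 2 of the standard preparation, of which Acta1 alone gave 314 and 124 CPM, and to between 2.38 and 22.2 CPM in the others. Ryr1, the skeletal muscle receptor, was at 4.45 and 3.19 CPM in those libraries, within or below its range in the other pellet libraries of the standard preparation. The 3 cardiac muscle markers, all in the table, summed to between 0.908 and 4898 CPM in the standard RPF libraries and to at most 3.41 CPM in every RNA-seq and low nuclease library. The sum was highest in WT fraction 5/6 replicates 1 and 3 (4898 and 3231 CPM) and WT pellet replicates 2 and 1 (2593 and 2041 CPM), where Tnnt2 alone gave nearly all of it. Ryr2, the cardiac receptor, was at 17.7, 49.9, 46.0 and 43.7 CPM in those libraries, which mix fraction 5/6 and pellet and include the library with the doubtful label. The part of these markers in the values below was not tested.

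Ryr2 had the highest mean level per length of the ryanodine receptors in every group of the standard preparation. Its level in the pellet was 43.7, 46.0 and 71.6 CPM in the WT and 49.4, 32.3 and 53.8 CPM in the FMR1 KO. In fraction 5/6 it was 17.7, 12.7 and 49.9 CPM in the WT, the last in the library with the doubtful label, and 13.9, 13.6 and 22.9 CPM in the FMR1 KO. The pellet libraries lay above all 5 other fraction 5/6 libraries, and that library alone reached their range. How many of all genes separate by group in this way, here and below, was not counted. RNA-seq gave 68.0, 66.6 and 58.1 CPM in the WT and 55.1, 52.8 and 54.0 CPM in the FMR1 KO.

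Ryr3 showed the same pattern. In the pellet it was at 23.6, 22.6 and 26.8 CPM in the WT and at 28.2, 17.0 and 27.2 CPM in the FMR1 KO. In fraction 5/6 it was at 7.04, 4.09 and 29.2 CPM in the WT and at 5.47, 5.91 and 9.10 CPM in the FMR1 KO. Again the doubtful library alone held a level like that of the pellet. Its RNA-seq level was 47.6, 36.2 and 26.4 CPM in the WT, a wide spread, against 27.9, 27.5 and 28.4 CPM in the FMR1 KO.

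Ryr1 was low throughout. It had 13 to 100 counts per standard RPF library, which gave 4.70, 4.42 and 4.45 CPM in the WT pellet, 3.89, 3.19 and 5.29 CPM in the FMR1 KO pellet, 4.45, 1.93 and 5.21 CPM in WT fraction 5/6 and 2.48, 2.58 and 3.03 CPM in FMR1 KO fraction 5/6. In RNA-seq it stood at 9.03, 9.04 and 7.02 CPM in the WT and 7.82, 6.09 and 7.46 CPM in the FMR1 KO, above every pellet library. Scaled by library size with Cdk8 left out, the typical gene was also lower in the pellet than in RNA-seq. Its median log2 change was -1.26 in the WT and -1.16 in the FMR1 KO. Relative to the typical gene, as given below, Ryr1 exceeded 60.4% and 60.8% of all genes tested in this comparison.

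Itpr1, the neuronal IP3 receptor, had the highest mean level per length of its family in every group of the standard preparation. The pellet held 52.8, 53.6 and 86.9 CPM in the WT and 71.3, 30.6 and 73.8 CPM in the FMR1 KO. Fraction 5/6 held 20.0, 18 and 74.8 CPM in the WT and 21.8, 26.2 and 32.4 CPM in the FMR1 KO. FMR1 KO pellet replicate 2 was low and lay inside the range of fraction 5/6, and the doubtful WT library was high. RNA-seq gave 42.1, 46.2 and 69.3 CPM in the WT and 50.5, 43.3 and 52.6 CPM in the FMR1 KO.

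Itpr2, an astrocyte receptor, was at similar levels in all 6 pellet libraries, with 26.5, 23.7 and 26.6 CPM in the WT and 29.0, 21.6 and 33.0 CPM in the FMR1 KO. Its RNA-seq level was 17.9, 14.0 and 19.3 CPM in the WT and 14.7, 17.5 and 15.1 CPM in the FMR1 KO, below every pellet library of either genotype. In fraction 5/6 it was at 19.6, 62.4 and 24.9 CPM in the WT and at 16.5, 14.8 and 7.94 CPM in the FMR1 KO. WT fraction 5/6 replicate 2 stood apart at 62.4 CPM, and here the doubtful library did not.

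Itpr3 had 4 to 157 counts per standard RPF library. The pellet was at 1.32, 1.06 and 1.34 CPM in the WT and at 1.30, 1.60 and 12.6 CPM in the FMR1 KO, and fraction 5/6 at 0.722, 5.45 and 8.54 CPM in the WT and 0.413, 0.682 and 10.7 CPM in the FMR1 KO. These 4 libraries, WT fraction 5/6 replicates 2 and 3 and both RPF libraries of FMR1 KO replicate 3, lay above the others. The RNA-seq libraries, at 1.07 to 2.60 CPM, had no such outlying value.

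**Figure D1:**
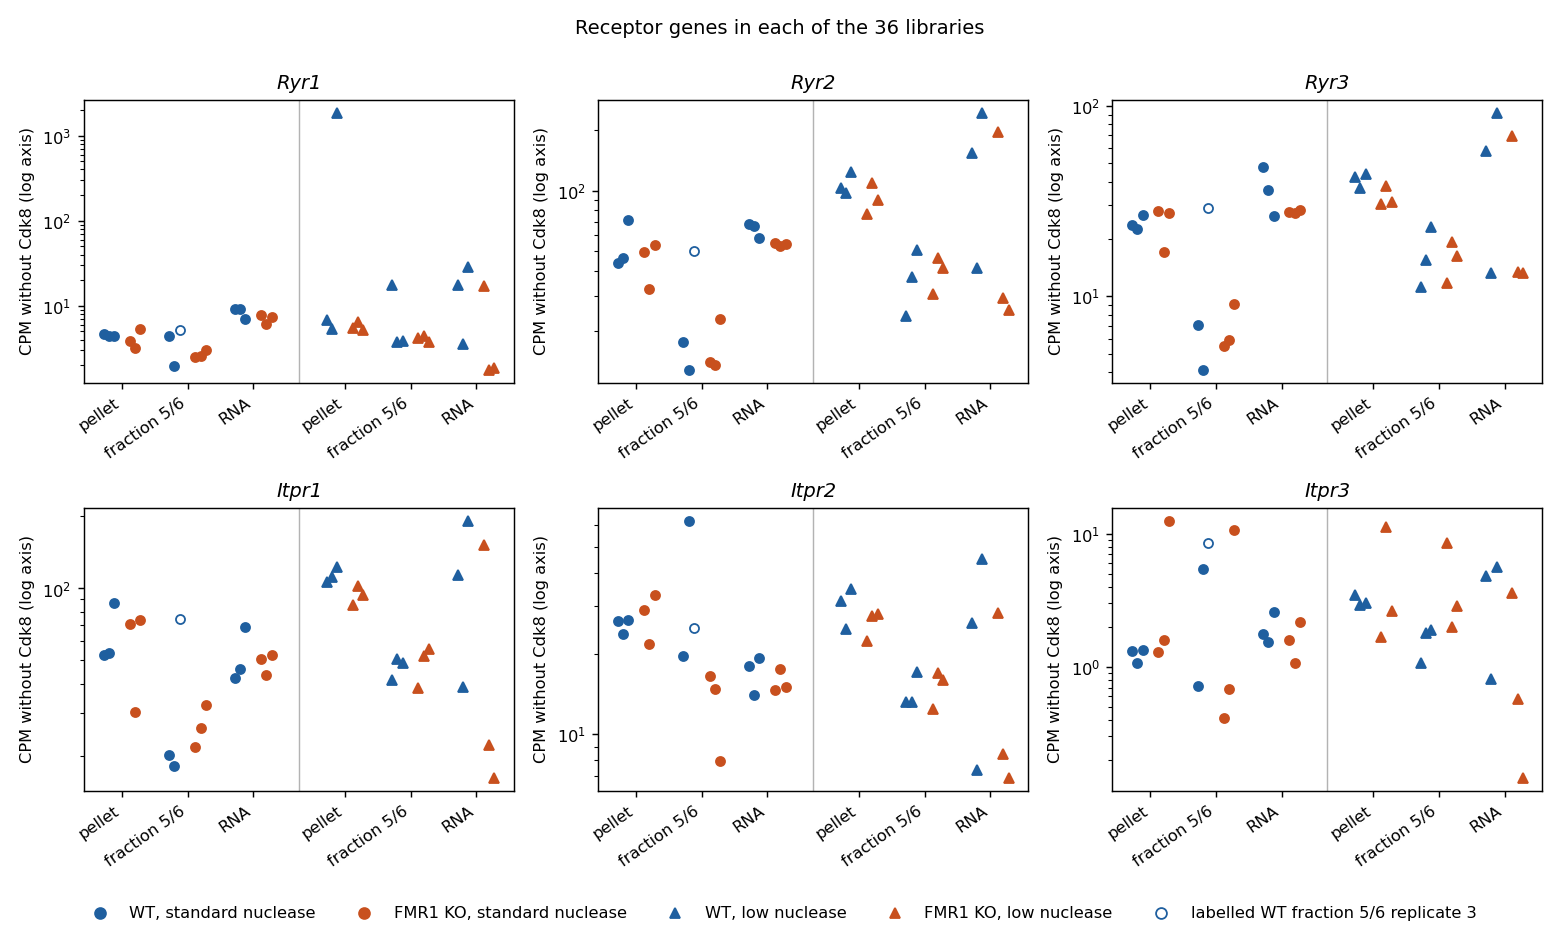
Level of each receptor by library in CPM without Cdk8, on a log axis, one panel per gene, with groups on the horizontal axis and 1 point per library. Open circles mark the library labelled WT fraction 5/6 replicate 3, in which Ryr2, Ryr3 and Itpr1 lie with the pellet, and Ryr1 at 1865 CPM in WT pellet low nuclease replicate 3 lies far above all other points.

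Levels of different genes can be compared only per length. Per kilobase of coding sequence, Itpr1 led the WT pellet of the standard preparation at 7.81 ± 2.36 CPM per kb (SD, n = 3), above Ryr2 at 3.61 ± 1.04 and Itpr2 at 3.16 ± 0.202, whose ranges overlapped each other. Ryr3 followed at 1.66 ± 0.152, Ryr1 at 0.298 ± 0.0103 and Itpr3 at 0.155 ± 0.0192, with no overlap between these neighbours. In the FMR1 KO pellet Itpr1 was again first at 7.10 ± 2.94, but its range overlapped that of Itpr2 at 3.44 ± 0.712, as did those of Itpr2 and Ryr2 at 3.03 ± 0.763. Ryr3 came next at 1.65 ± 0.424, and Itpr3 at 0.644 ± 0.802 overlapped both Ryr3 and Ryr1 at 0.272 ± 0.0703. In RNA-seq, per kilobase of exon, the order was Itpr1, Ryr2, Ryr3, Itpr2, Ryr1 and Itpr3 in both genotypes. The levels of the FMR1 KO were 2.66, 1.88, 1.47, 1.06, 0.326 and 0.179 CPM per kb in that order, with no overlap between neighbours. In the WT Itpr1 at 2.87 ± 0.800, Ryr2 at 2.23 ± 0.187 and Ryr3 at 1.94 ± 0.560 overlapped, and Itpr2 lay below at 1.15 ± 0.186. By these lengths Itpr2 ranked below Ryr3 in RNA-seq and above it in the pellet. The coding and exon lengths were 8103 and 14802 nt for Itpr2 and 14664 and 18977 nt for Ryr3, so these rankings do not share a scale. Intronic reads count toward these values and their share was not measured.

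**Figure D2:**
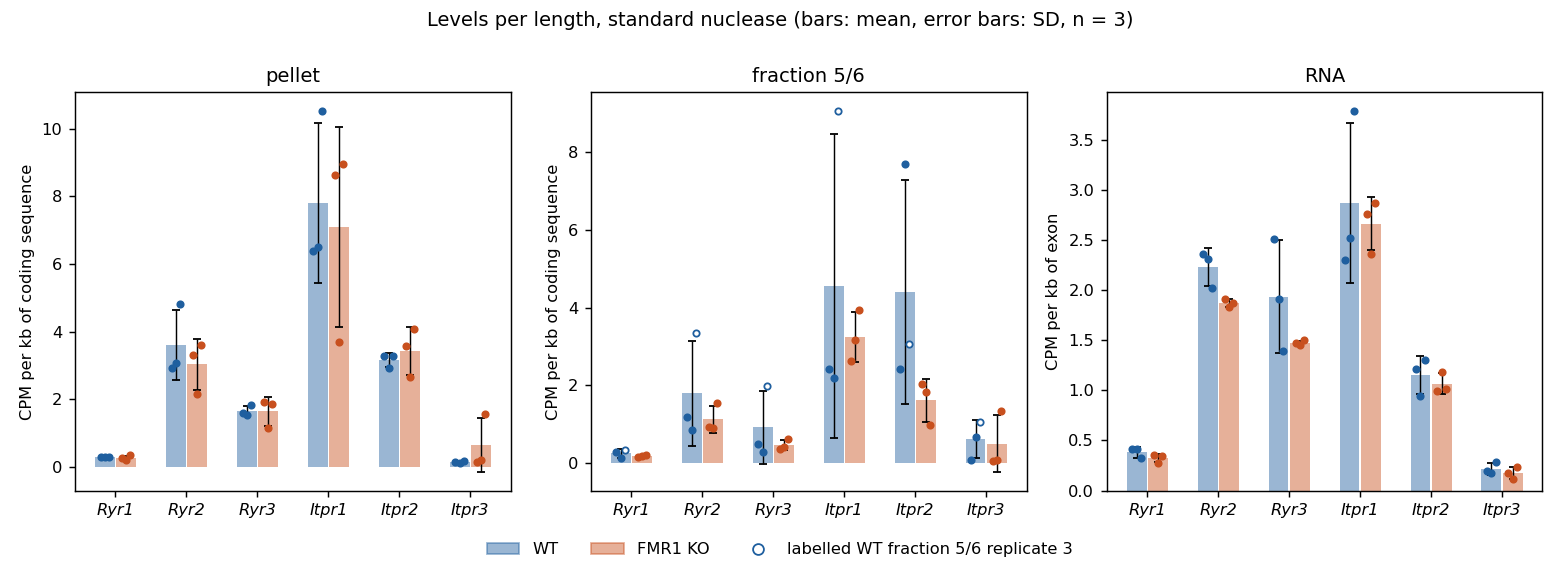
Levels per length in the standard preparation, in CPM per kb of coding sequence for RPFs and per kb of exon for RNA-seq, as means (bars) with SD (error bars, n = 3) and 1 point per library. Itpr1 is the highest bar in each panel, and Ryr1 and Itpr3 are the lowest in the pellet and in RNA-seq.

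Occupancy, the comparison of pellet RPFs with RNA-seq, shows which messages hold more pelleted ribosomes for their abundance than the typical message. Itpr1, Itpr2 and Ryr2 had higher occupancy in both genotypes of the standard preparation, relative to the typical gene, and the values of Itpr1 and Itpr2 were above those of all 3 ryanodine receptors. In the WT 3 of 6 receptors were called higher and none lower, where 31.1% of the 16166 genes tested were called higher and 34.3% lower. In the FMR1 KO 5 of 6 were called higher and none lower, against backgrounds of 31.9% and 35.2%. All calls are edgeR quasi-likelihood tests with Benjamini-Hochberg adjustment over every gene tested and a threshold of 0.05, and errors are standard errors.

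Itpr2 had the highest occupancy in the WT, at a log2 fold change of 1.75 ± 0.16 (edgeR adjusted p = 6.10e-05), and reached 1.92 ± 0.12 in the FMR1 KO (edgeR adjusted p = 1.92e-05). It exceeded 91.8% and 92.5% of all genes tested. Itpr1 had 1.48 ± 0.29 in the WT and 1.32 ± 0.20 in the FMR1 KO (edgeR adjusted p = 0.00277 and 0.000903). Ryr2 was at 0.92 ± 0.24 and 0.83 ± 0.08 (edgeR adjusted p = 0.0114 and 0.000115). Ryr3 passed in the FMR1 KO at 0.88 ± 0.09 (edgeR adjusted p = 0.000169), while in the WT it was at 0.57 ± 0.24 and missed the threshold (edgeR adjusted p = 0.0693). It passed in the WT with DESeq2 at 0.61 and without WT RNA-seq replicate 1, in which Ryr3 was at 47.6 CPM, at 0.81. Taking the whole count of Aven off Ryr3, which also removes reads from outside their overlap, put it at 0.89 and is no measure of the reads they share.

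Ryr1 showed no call, at 0.27 ± 0.19 in the WT and 0.31 ± 0.17 in the FMR1 KO (edgeR adjusted p = 0.242 and 0.142). Itpr3 was at 0.51 ± 0.31 in the WT (edgeR adjusted p = 0.180) and was called at 2.68 ± 0.79 in the FMR1 KO (edgeR adjusted p = 0.0200). That call rests on FMR1 KO pellet replicate 3, the library with 12.6 CPM, without which the value was 1.02 with an edgeR adjusted p of 0.0714, and it was also lost without FMR1 KO RNA-seq replicate 1 or 2. These values are relative to the typical gene, since TMM scaling sets it near 0. Scaled by library size alone the median of all genes moved to -2.13 (Cdk8 counted) and -1.26 (Cdk8 left out) in the WT and to -2.33 and -1.16 in the FMR1 KO. Ryr1, Ryr2 and Ryr3 then turned to below 0 in both genotypes, as did Itpr3 in the WT, and Itpr1 and Itpr2 with Cdk8 counted. With that scaling 421 genes were called higher and 14180 lower in the WT with Cdk8 counted, in place of 5033 and 5542, and 1422 and 10952 with Cdk8 left out. The corresponding counts of the FMR1 KO were 433 and 13850, or 1289 and 10047, in place of 5144 and 5679. Relative to the median of all genes each receptor stayed above 0 under each scaling, Ryr2 for example at 1.00 to 1.02 in the WT and 0.90 to 0.94 in the FMR1 KO. A change of scaling moves all genes of a comparison nearly alike, so this outcome was close to fixed in advance and is no added support.

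**Figure D3:**
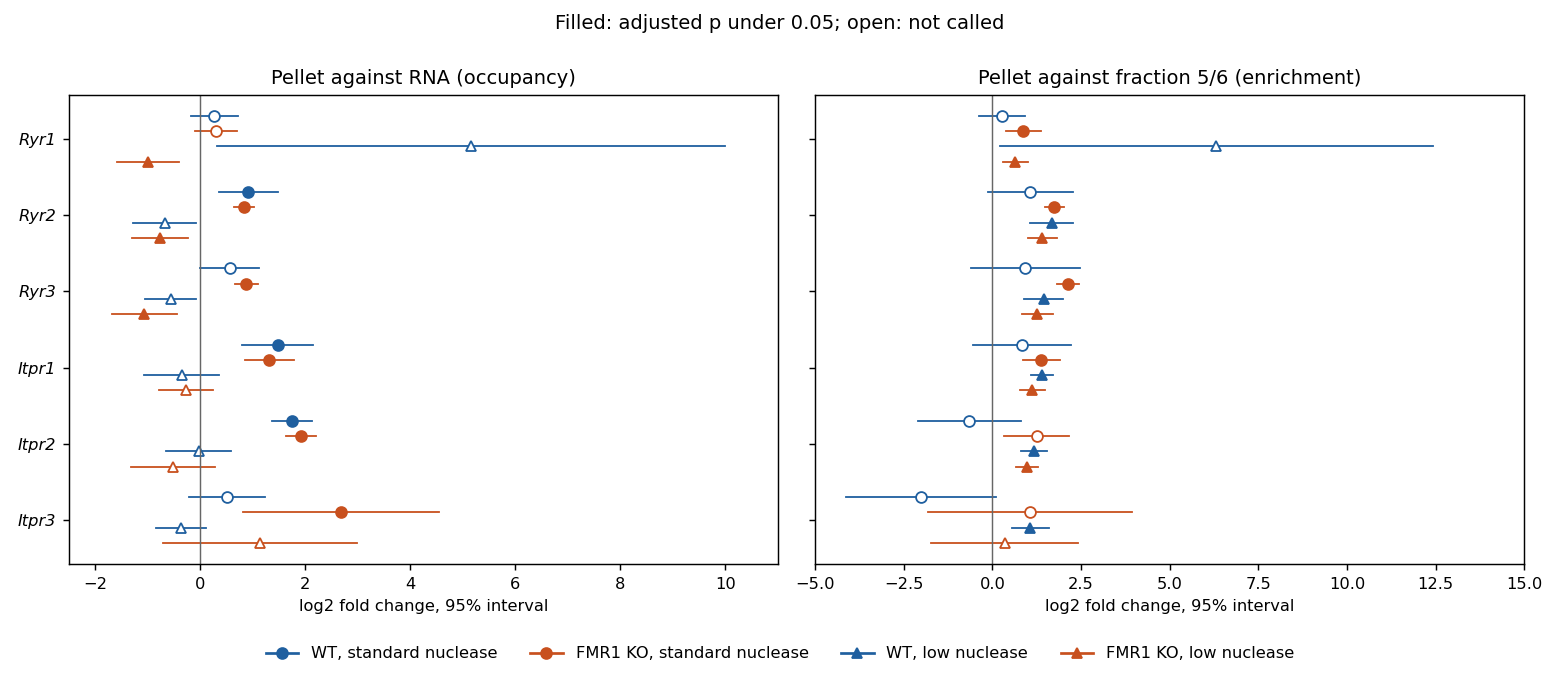
Log2 fold change of each receptor in occupancy (pellet against RNA-seq) and enrichment (pellet against fraction 5/6) by genotype and preparation, with 95% confidence intervals and filled points where the edgeR adjusted p was under 0.05. Occupancy is filled above 0 for Itpr1, Itpr2 and Ryr2 in both genotypes with standard nuclease, and enrichment is filled above 0 for Ryr2, Ryr3 and Itpr1 for each genotype and preparation but the WT with standard nuclease.

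Enrichment, the comparison of pellet RPFs with those of fraction 5/6, asks which messages sit with the ribosomes that pellet among all clustered ribosomes. All 3 ryanodine receptors and Itpr1 were enriched in the FMR1 KO pellet of the standard preparation, in which 4 of 6 receptors were called higher and none lower against 9.09% and 2.35% of the 13248 genes tested. Ryr3 was at 2.13 ± 0.13, which is 4.39-fold, and Ryr2 at 1.74 ± 0.11, which is 3.35-fold, both with an edgeR adjusted p of 0.00127. With replicate 3 left out of both kinds of library they were at 2.19 and 1.77 and narrowly missed the threshold (edgeR adjusted p = 0.0504 for each). Of all genes 3 were then called higher and 4 lower, in place of 1204 and 311. Itpr1 was at 1.38 ± 0.22 (edgeR adjusted p = 0.0119). Ryr1 was at 0.87 ± 0.21 (edgeR adjusted p = 0.0458), a call that was lost without any 1 of the 6 libraries, at 0.78 to 0.95, and with DESeq2. Itpr1 missed the threshold without fraction 5/6 replicate 1 at the same value of 1.38 (edgeR adjusted p = 0.0613), and with replicate 1 or 3 left out of both kinds at 1.28 and 1.25 (edgeR adjusted p = 0.144 and 0.136). With replicate 1 left out of both kinds 133 of all genes were called higher and 0 lower. Itpr2 at 1.25 ± 0.38 (edgeR adjusted p = 0.0825) and Itpr3 at 1.05 ± 1.20 (edgeR adjusted p = 0.578) were not called. Itpr2 was called with DESeq2 at 1.26 and without fraction 5/6 replicate 3, its lowest library, at 0.95. Itpr3 was at -0.54 without pellet replicate 3 and at 3.20 without fraction 5/6 replicate 3. Scaled by library size alone the median of all genes was -0.60 with Cdk8 counted, 135 genes were called higher and 100 lower in place of 1204 and 311, and no receptor was called, while with Cdk8 left out 1 was, and all 6 stayed above 0.

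In the WT no receptor was called by edgeR in either direction, none had an unadjusted p under 0.05, and DESeq2 called 0 as well. In that comparison only 0.0153% of the 13076 genes were called higher and 0.00765% lower. The values were 1.07 ± 0.50 for Ryr2, 0.93 ± 0.64 for Ryr3, 0.84 ± 0.57 for Itpr1 and 0.27 ± 0.26 for Ryr1. These standard errors were larger than those of the FMR1 KO. Itpr2 was at -0.65 ± 0.60 and Itpr3 at -2.01 ± 0.87. Without the library labelled WT fraction 5/6 replicate 3, 1027 genes were called higher and 246 lower, among them Ryr3 at 2.10 ± 0.20 (edgeR adjusted p = 0.00796) and Ryr2 at 1.78 ± 0.32 (edgeR adjusted p = 0.0335). Itpr1 came to 1.69 ± 0.36 (edgeR adjusted p = 0.0509), Ryr1 to 0.49, Itpr2 to -0.93 and Itpr3 to -1.48. Itpr2 was above 0, at 0.40, without fraction 5/6 replicate 2, the library with 62.4 CPM.

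**Figure D4:**
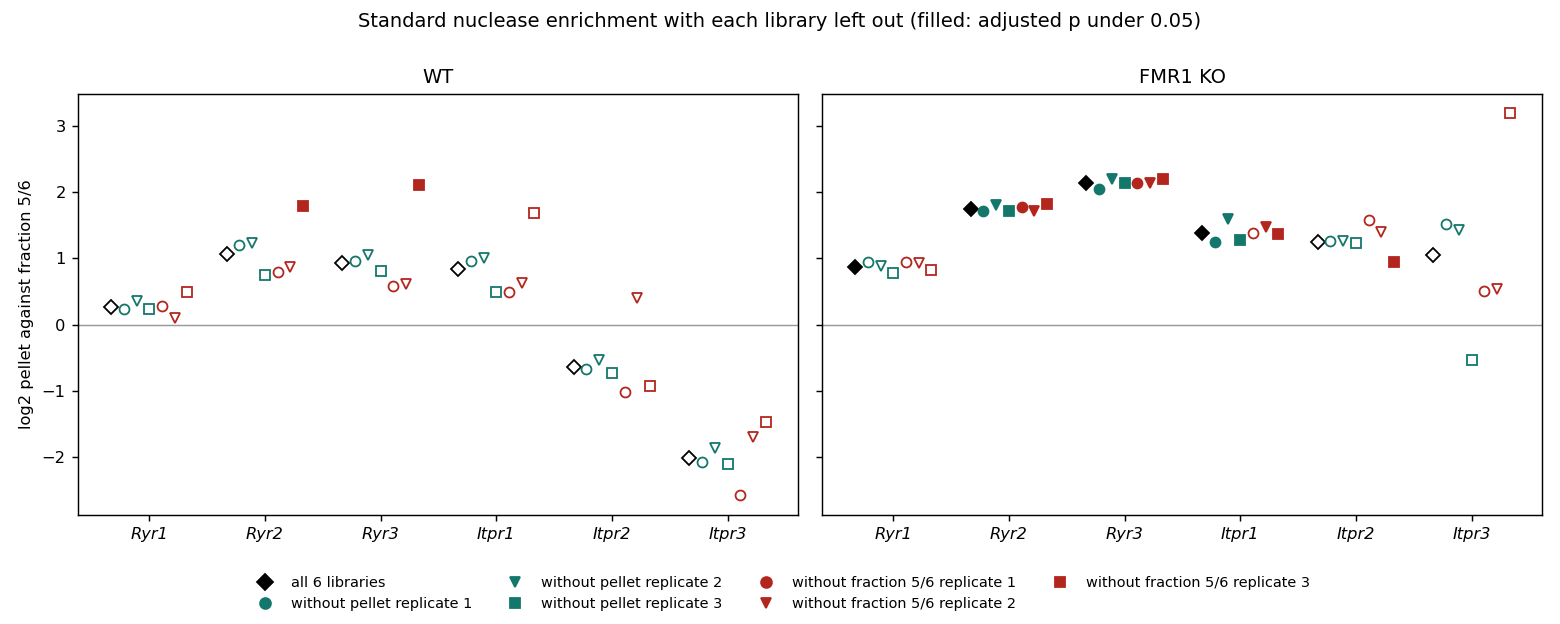
Enrichment of each receptor in the standard preparation with all 6 libraries (diamonds) and with each library left out, as log2 of pellet against fraction 5/6, for the WT and the FMR1 KO, filled where the edgeR adjusted p was under 0.05. Ryr2 and Ryr3 move to 1.78 and 2.10 in the WT when fraction 5/6 replicate 3 is left out and hardly move in the FMR1 KO, while Itpr3 ranges from -0.54 to 3.20 there.

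In the FMR1 KO of the standard preparation the enrichment of the receptors lay within the range of other long messages. Of the genes with a coding sequence of at least 7500 nt, 246 in the table with the receptors included, 149 of 225 tested (66.2%) were called higher and 1 lower in the FMR1 KO standard pellet. Their median was 1.41, against -0.04 for all genes. Ryr3 was exceeded by 52 of these 225 genes, Ryr2 by 80, Itpr1 by 117, Itpr2 by 134, Itpr3 by 155 and Ryr1 by 175. Each of the 6 receptors exceeded at least 88.3% of all genes tested in that comparison. With all libraries of the WT the shares of genes exceeded were 98.1% for Ryr2, 96.8% for Ryr3, 95.5% for Itpr1 and 76.1% for Ryr1, but 6.41% for Itpr2 and 1.82% for Itpr3. Of the 224 long coding genes tested there, 198 exceeded Itpr2 and 218 exceeded Itpr3, which lay below the 5th percentile of that list at -1.08. Genes spanning at least 300 kb, a list chosen after the data were seen, had a median of 0.38 in the FMR1 KO, and 109 of 555 (19.6%) were called higher and 4 lower, against a median of 0.08 and 0 of 547 called by edgeR in the WT (64 at an unadjusted p under 0.05). In the WT the median of the long coding genes was 0.76, with 0 called by edgeR (17 of 224 at an unadjusted p under 0.05) and with 0 higher and 2 lower by DESeq2. Without the library labelled WT fraction 5/6 replicate 3, 120 of 225 (53.3%) were called higher and 4 lower in the WT, at a median of 1.43, against 7.76% and 1.86% of all 13240 genes tested. Genes of long span then had 61 of 549 (11.1%) higher and 19 lower. Long coding genes also had higher occupancy in the standard preparation. In the WT 136 of 242 (56.2%) were called higher and 24 lower, at a median of 0.73, against 31.1% and 34.3% of all genes. In the FMR1 KO 148 of 242 (61.2%) were higher and 18 lower, at a median of 0.91, against 31.9% and 35.2%. Among these genes Itpr2 was exceeded by 44 in each genotype and Ryr2 by 109 and 129. With low nuclease 44 of 240 (18.3%) long coding genes were called higher and 61 (25.4%) lower in the WT. In the FMR1 KO 18 (7.5%) were higher and 45 (18.8%) lower, and the medians were -0.21 and -0.22. The part of coding length in the receptors' values was not tested.

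**Figure D5:**
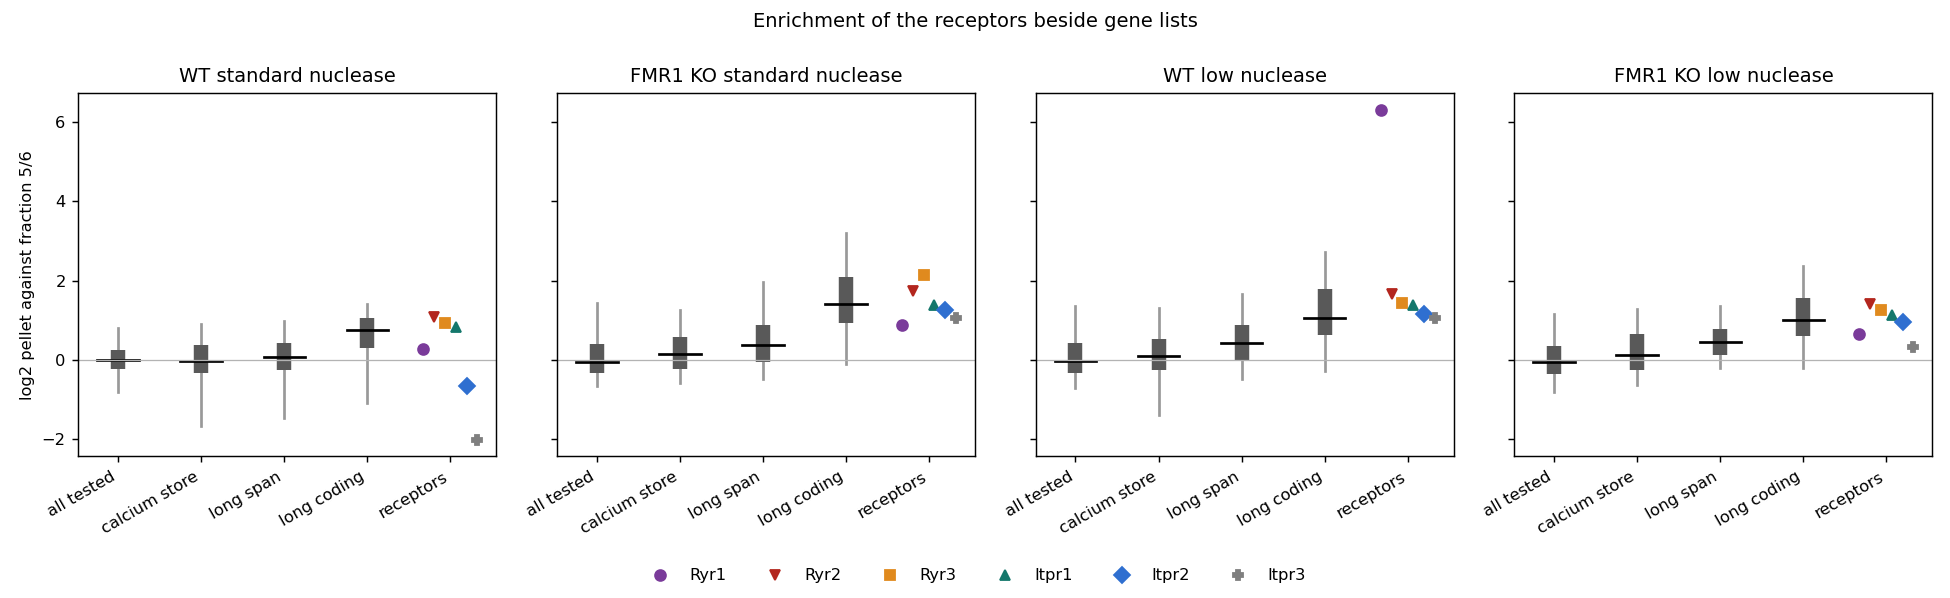
Enrichment (log2 of pellet against fraction 5/6) of the 6 receptors beside all genes tested, the calcium store list, genes spanning at least 300 kb and genes with at least 7500 nt of coding sequence, drawn as median (bar), 25th to 75th percentile (box) and 5th to 95th percentile (line). The medians of the long coding genes, at 0.76, 1.41, 1.07 and 1.00 from left to right, stand above those of the other lists, and the receptors lie within the 5th to 95th percentile of that list, apart from Itpr3 below it in the WT with standard nuclease and Ryr1 above it in the WT with low nuclease.

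The low nuclease preparation gave a second set of libraries. The pellet again held more Ryr2 than fraction 5/6, at 103, 97.3 and 124 CPM against 23.7, 37.2 and 50.8 CPM in the WT and at 76.4, 109 and 90.1 CPM against 30.7, 46.2 and 41.4 CPM in the FMR1 KO. Itpr1 was at 106, 111 and 123 CPM against 41.3, 50.8 and 48.7 CPM in the WT and at 85.0, 102 and 94.1 CPM against 38.3, 52.2 and 55.9 CPM in the FMR1 KO. Ryr3 was at 42.4, 37.2 and 44.1 CPM against 11.1, 15.5 and 23.0 CPM in the WT and at 30.6, 38.1 and 31.4 CPM against 11.7, 19.3 and 16.3 CPM in the FMR1 KO. For Ryr2, Ryr3, Itpr1 and Itpr2 every pellet library lay above every fraction 5/6 library of its genotype. Ryr1 did so in the FMR1 KO and not in the WT. The share of all genes that separate in this way was not counted. Itpr2, the astrocyte receptor, was at 31.2, 24.6 and 34.7 CPM against 13.2, 13.2 and 17.1 CPM in the WT and at 22.2, 27.5 and 28 CPM against 12.4, 17.0 and 15.9 CPM in the FMR1 KO, with no outlying library in fraction 5/6. For Itpr3 this separation held in the WT, at 3.44, 2.93 and 3.00 against 1.07, 1.81 and 1.90 CPM, and not in the FMR1 KO, at 1.68, 11.2 and 2.62 against 8.46, 1.99 and 2.85 CPM.

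In the WT 5 of 6 receptors were enriched, against 14.3% of 15587 genes called higher and 8.56% called lower. Ryr2 was at 1.67 ± 0.25 (edgeR adjusted p = 0.0117), Ryr3 at 1.44 ± 0.23 (edgeR adjusted p = 0.0128) and Itpr1 at 1.39 ± 0.12 (edgeR adjusted p = 0.00541). Itpr2 at 1.17 ± 0.15 and Itpr3 at 1.07 ± 0.21 were also called (edgeR adjusted p = 0.00881 and 0.0210), Itpr3 not without any 1 of the pellet libraries. With replicate 1 left out of both kinds of library Ryr2, Ryr3 and Itpr2 missed the threshold at 1.53, 1.28 and 1.16 (edgeR adjusted p = 0.0566, 0.0687 and 0.0784), as did Ryr2 and Ryr3 with replicate 2 left out, at 1.71 and 1.44 (edgeR adjusted p = 0.0819 and 0.0888). Of all genes 137 were called higher and 12 lower without replicate 1, and 690 and 64 without replicate 2. Enrichment was called for 5 of 6 in the FMR1 KO too, against 8.79% of 15581 genes called higher and 11.7% called lower. Ryr2 stood at 1.40 ± 0.17, Ryr3 at 1.27 ± 0.18, Itpr1 at 1.13 ± 0.14 and Itpr2 at 0.96 ± 0.13 (edgeR adjusted p = 0.0127, 0.0139, 0.0133 and 0.0134). With replicate 2 or replicate 3 left out of both kinds of library each of these calls was lost, at values of 0.96 to 1.46 and edgeR adjusted p of 0.0825 to 0.119. Of all genes 5 were then called higher and 4 lower without replicate 2, and 0 without replicate 3. Ryr3 and Itpr2 also missed the threshold without fraction 5/6 replicate 3 alone (edgeR adjusted p = 0.0543 and 0.0532). Ryr1 at 0.65 ± 0.14 (edgeR adjusted p = 0.0308) lost its call without pellet replicate 1 or 2 or any 1 of the fraction 5/6 libraries. Itpr3 was at 0.34 ± 0.85 (edgeR adjusted p = 0.808). With library size alone as the scaling, calls in the WT were 1538 higher and 1944 lower in place of 2225 and 1334, and in the FMR1 KO 1151 and 4267 in place of 1369 and 1824, with 5 and 4 receptors called higher. Long coding genes were called higher in 165 of 243 cases (67.9%) in the WT and in 152 of 243 (62.6%) in the FMR1 KO.

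Ryr1 had 1 extreme library. It was at 6.70, 5.33 and 1865 CPM in the WT pellet of the low nuclease preparation, the last from 66624 counts and 106 times the level of the next highest RPF library. Fraction 5/6 was at 17.5, 3.75 and 3.83 CPM in the WT and 4.18, 4.42 and 3.77 CPM in the FMR1 KO, and the FMR1 KO pellet at 5.42, 6.46 and 5.19 CPM. In the same library 8 genes with at least 1000 counts were more than 50 times above every other RPF library, where the other RPF libraries had 0 to 15 such genes, and the genes whose levels went most closely with Ryr1, Slc8b1, Trim71 and Spred3, had 33683, 19891 and 66934 counts there. With that library the enrichment of Ryr1 in the WT was 6.31 ± 2.53 (edgeR adjusted p = 0.115), and without it -0.42. Its occupancy was 5.16 ± 2.08 with it (edgeR adjusted p = 0.0696) and -1.48 without it (edgeR adjusted p = 0.00625).

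Occupancy in the low nuclease preparation did not repeat that of the standard preparation. In the WT edgeR called 0 receptors (3 at an unadjusted p under 0.05) and DESeq2 called 0, against 24.9% of 15610 genes called higher and 27.6% called lower. Values were -0.67 for Ryr2, -0.56 for Ryr3, -0.35 for Itpr1, -0.02 for Itpr2 and -0.36 for Itpr3. In the FMR1 KO the 3 ryanodine receptors were called lower, against 12.8% of 15309 genes called lower and 16% called higher. Ryr3 was at -1.06 ± 0.26, Ryr1 at -0.99 ± 0.25 and Ryr2 at -0.76 ± 0.23 (edgeR adjusted p = 0.0244, 0.0274 and 0.0443). Each of these calls was lost without any 1 of the pellet libraries or RNA-seq replicate 2. Itpr1 was at -0.26, Itpr2 at -0.52 and Itpr3 at 1.14, with no call. Scaled by library size alone, with Cdk8 counted, the FMR1 KO had 180 genes higher and 15 lower in place of 2454 and 1953, a median of 0.71, and values of 0.10 for Ryr2 and 0.03 for Ryr3, so their direction turned, and the WT had 239 and 34 in place of 3880 and 4302.

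These values rest on RNA-seq libraries of uneven kind. Ryr2, for example, was at 154, 41.3 and 246 CPM in the WT and 196, 29.0 and 25.5 CPM in the FMR1 KO, low in each of the 3 libraries with most counts on 10 genes. In the other 3 the receptors were above their mean of the standard RNA-seq libraries by a factor of 3.36 for Ryr2, 3.02 for Itpr1, 2.70 for Ryr1, 2.61 for Itpr3, 2.26 for Ryr3 and 2.02 for Itpr2. Leaving out the 3 concentrated libraries leaves the FMR1 KO with 1 RNA-seq library, assumed to vary like the pellet libraries. Against that library Ryr1 was at -1.14, Ryr2 at -0.65 and Ryr3 at -0.61 (edgeR adjusted p = 0.0222, 0.0738 and 0.0505), values that say nothing of the spread between RNA-seq libraries. The part of RNA composition in these values was not tested.

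Genotypes were compared by a test in the standard preparation only, where no receptor was called different under TMM scaling. In RNA-seq, where 0.0735% of 16334 genes were called in either direction, edgeR called 0 receptors, 0 had an unadjusted p under 0.05, and DESeq2 called 0. The log2 fold change of FMR1 KO against WT was -0.37 (95% interval -0.80 to 0.06) for Ryr3, -0.22 (-0.45 to 0.004) for Ryr2, -0.21 (-0.56 to 0.14) for Ryr1, -0.08 (-0.45 to 0.30) for Itpr1, -0.08 (-0.41 to 0.24) for Itpr2 and -0.26 (-0.92 to 0.40) for Itpr3. In pellet RPFs, where 0.015% of 13370 genes were called, edgeR again called 0 receptors with 0 at an unadjusted p under 0.05, and DESeq2 called 0. The intervals were -0.84 to 0.34 for Ryr2, -0.35 to 0.35 for Ryr3, -0.93 to 0.57 for Itpr1, -0.55 to 0.33 for Ryr1 and -0.15 to 0.44 for Itpr2. Itpr3 was at 1.96 (-0.12 to 4.04), with FMR1 KO pellet replicate 3 at 12.6 CPM against 1.60 or less in the other 5. It was called higher at 1.93 when scaled by library size with Cdk8 counted (edgeR adjusted p = 0.00984). With that scaling 169 of 13370 genes were called higher and 118 lower, at a median of -0.30. In bulk libraries of this kind fewer cells that express a gene and less RNA per cell cannot be told apart.

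The difference in occupancy between genotypes was likewise not called for any receptor by edgeR or DESeq2, with a background of 0.0672% of 16372 genes, and 1 receptor had an unadjusted p under 0.05. That was Itpr3 at 2.20 (edgeR unadjusted p = 0.0366, adjusted p = 0.787). The others were between -0.12 for Itpr1 and 0.35 for Ryr3. For enrichment 0 of 13679 genes were called, so the background was 0%, and 0 receptors were called by edgeR or DESeq2, with 1 at an unadjusted p under 0.05. That was Itpr2 at 1.94 (edgeR unadjusted p = 0.0340, adjusted p = 0.856), where WT fraction 5/6 replicate 2 was high at 62.4 CPM. Ryr2 at 0.70 (-0.51 to 1.92) and Ryr3 at 1.23 (-0.33 to 2.80) were not called. Without the library labelled WT fraction 5/6 replicate 3 these differences were -0.02 for Ryr2, 0.05 for Ryr3, -0.29 for Itpr1, 0.41 for Ryr1, 2.20 for Itpr2 and 2.55 for Itpr3, with no call.

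Calls among the other genes of the calcium store lay near the background in occupancy of the standard preparation. Of a list of 64 genes for store pumps, store-operated entry, luminal calcium binding, junctions, IP3 production and receptor partners, 63 were in the table. In occupancy 17 of 62 tested were called higher and 21 lower in the WT, and 18 and 21 in the FMR1 KO, shares near the backgrounds, and 16 were higher and 18 lower in both genotypes. The 4 highest of those by the mean of both genotypes were Tmem38b, a potassium channel of the store (8.45 ± 0.25 in the WT and 9.05 ± 0.45 in the FMR1 KO), Tmco1, a calcium leak channel (1.35 ± 0.47 and 6.21 ± 1.54), Cacna1d, a voltage-gated calcium channel (1.67 ± 0.47 and 4.59 ± 0.36), and Atp2a2, the calcium pump SERCA2 (2.27 ± 0.56 and 3.38 ± 0.13). The 95th percentile of all genes tested was 2.14 in the WT and 2.31 in the FMR1 KO, far below Tmem38b. The part of intronic reads and of single outlying libraries in these values was not tested. The 4 lowest were the plasma membrane calcium channel Orai2 (-5.51 ± 0.18 and -5.44 ± 0.16), the scaffold Homer2 (-4.12 ± 0.18 and -3.70 ± 0.28), Tmem38a (-3.22 ± 0.27 and -2.82 ± 0.33) and the junctional protein Jph3 (-2.80 ± 0.13 and -2.88 ± 0.17). With low nuclease 9 of 62 (14.5%) were called higher and 27 (43.5%) lower in the WT, against 24.9% and 27.6% of all genes, and 8 of 60 (13.3%) and 12 (20%) in the FMR1 KO, against 16% and 12.8%. Tmem38b and Tmco1 were again called higher there in both genotypes and Orai2 and Homer2 lower. Atp2a2 turned to -1.14 ± 0.31 in the WT (edgeR adjusted p = 0.0167) and -0.98 ± 0.53 in the FMR1 KO, where it was not called. Cacna1d turned to -0.51 ± 0.46 in the WT, with no call, and to -1.65 ± 0.37 in the FMR1 KO (edgeR adjusted p = 0.0173). Tmem38a and Jph3 were called lower in the WT and not called in the FMR1 KO, at -1.31 ± 0.45 and -0.45 ± 0.81. In enrichment 7 of 52 (13.5%) were called higher and 1 (1.92%) lower in the FMR1 KO of the standard preparation, against 9.09% and 2.35% of all genes. With low nuclease 12 of 61 (19.7%) were higher and 1 (1.64%) lower in the WT, against 14.3% and 8.56%, and 6 of 60 (10%) and 7 (11.7%) in the FMR1 KO, against 8.79% and 11.7%. In the WT of the standard preparation edgeR called 0 of 51, with 4 at an unadjusted p under 0.05, and DESeq2 called 0. Without the library labelled WT fraction 5/6 replicate 3, 1 of 51 was called higher and 1 lower.

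Sites of ribosome accumulation were deposited as peaks of RPF coverage on transcripts for the 12 RPF libraries of the standard preparation, with 11389 to 36435 peaks each. None lay on any of the 60 annotated transcripts of the receptors. Of the 63 store genes 31 had a peak in at least 1 library, among them Atp2a2 and the luminal calcium buffer Calr, and of the 246 long coding genes 77 did. The receptors had mean counts of 39.8 to 610 in these libraries. Among the other long coding genes within that range 12 of 91 had a peak, and among those above it 65 of 91. The part of depth in the absence of peaks on the receptors was not tested.

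Over all 36 libraries Ryr2 and Ryr3 went together (Pearson's r of log2 levels 0.967), and Ryr2 and Itpr1 did so less closely (0.923). Of 9473 genes with at least 10 CPM, those most like Ryr2 were Sorl1 (0.970), Ryr3 and Astn1 (0.966), those most like Ryr3 were Ryr2, 4932438A13Rik (0.951) and Tmem131l (0.950), and those most like Itpr1 were Ganab (0.969), Npc1 (0.957) and Slc1a4 (0.954). Itpr2 had Gabrb1 (0.800), Rab3gap1 (0.784) and Sorcs3 (0.760) as its nearest genes, and Itpr3 had Gm20662 (0.616), Gm28043 (0.609) and Cmtr1 (0.605). The r of Ryr1 with Ryr2 was 0.539, and its nearest genes, Slc8b1 (0.955), Trim71 (0.912) and Spred3 (0.891), rest on WT pellet low nuclease replicate 3, without which none of the 3 was among its nearest. These values describe libraries that share their kind and preparation and are no test.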

How the data were processed

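The authors made the deposited raw counts per gene from single-end reads that were trimmed and demultiplexed with cutadapt 2.10, cleared of rRNA and ncRNA with Bowtie2 2.3.5 and aligned to GRCm38 with STAR 2.7.8a. They removed duplicates marked by Picard (SAMtools 1.19.2) and counted with featureCounts 2.2.0. The deposited peak lists give 1 score per peak on a transcript, read here as its height. The study's methods keep peaks of at least 4 times the transcript's average, and whether the deposited lists were so filtered is not given in the sources used here. No column of the count table was left without a sample.

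Protein-coding genes (16561 of GENCODE M21, and 27 without a match) were tested in R 4.3.3 with edgeR 4.0.16 (limma 3.58.1), using filterByExpr, TMM and quasi-likelihood fits of the groups compared. P-values were adjusted over all genes tested by the Benjamini-Hochberg method, with a threshold of 0.05. Occupancy and enrichment differences between genotypes were interaction terms. Receptors other than Itpr3 had 13 to 1123 counts per standard RPF library. Python 3.11.15 with pandas 2.3.3, numpy 2.4.6 and scipy 1.17.1 gave the other values. Alternatives were scaling by library size, leaving out Cdk8, DESeq2 1.42.0, no filter, all biotypes, 1 fit over 18 libraries, a replicate block and leaving out libraries. Taking the Aven counts off Ryr3 and leaving out 3 RNA-seq libraries were added after seeing the data, as was the list of genes spanning 300 kb.

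The receptors and the gene lists were chosen with earlier results of these data known. All 6 receptors are named, with the store genes called the same way in both genotypes (the 4 highest and 4 lowest by the mean of both) and the 3 genes most like each receptor in level. The nearest genes of Ryr1 without 1 library are not reported here. Main tests used no replicate block. In 1 comparison, enrichment in the WT with low nuclease, every library deviated most like its own number (r 0.188, 0.118 and 0.210). There a replicate block changed no call of a receptor.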

Additional observations from a re-analysis of the deposited data

How the results depend on the processing

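Over the settings other than left-out libraries, 537 changes of receptors kept direction and side of the threshold, 39 reversed, 27 lost and 9 gained a call. Under library size alone the number of receptors called in standard occupancy was 0 higher and 4 lower in the WT and the same in the FMR1 KO with Cdk8 counted, and 1 higher and 2 lower in the WT and 1 and 1 in the FMR1 KO with Cdk8 left out. Occupancy in the WT was then -1.76 and -0.88 for Ryr1, -1.13 and -0.26 for Ryr2, -1.47 and -0.59 for Ryr3 and -1.54 and -0.66 for Itpr3 (Cdk8 counted, then left out), with -0.58 for Itpr1 and -0.29 for Itpr2 with Cdk8 counted. In the FMR1 KO it was -1.93 and -0.79 for Ryr1, -1.39 and -0.26 for Ryr2, -1.35 and -0.21 for Ryr3, and -0.85 for Itpr1 and -0.32 for Itpr2 with Cdk8 counted. In standard enrichment of the FMR1 KO that scaling called 0 receptors, or 1 with Cdk8 left out. In low nuclease occupancy it called 1 higher in the WT and 0 lower in the FMR1 KO, with Itpr2 at 0.16 and 0.21 in the WT and, in the FMR1 KO, Ryr2 at 0.10 and 0.14, Ryr3 at 0.030 and 0.066, Itpr1 at 0.52 and 0.57 and Itpr2 at 0.81 and 0.84. Between genotypes it called 1 receptor higher in the pellet and put Itpr2 at -0.14 there, and in occupancy put Ryr1 at -0.17, Itpr2 at -0.024 and, with Cdk8 left out, Ryr2 at 0.00066. In standard occupancy the median of all genes moved with these reversals, as given above, and the cause of the other reversals was not tested. With CPM that count Cdk8, mean WT pellet levels were 2.46 for Ryr1, 29.3 for Ryr2, 13.3 for Ryr3, 35.1 for Itpr1, 14 for Itpr2 and 0.675 for Itpr3.

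In low nuclease occupancy Itpr2 of the WT, at -0.02, was at 0.041 with Cdk8 left out and TMM, 0.033 with DESeq2, 0.022 with the replicate block and 0.26 without the 3 concentrated RNA-seq libraries, without which Itpr1 was at 0.069, Itpr2 of the FMR1 KO at 0.32, and 1 receptor was called lower there, against 1 RNA-seq library. A fit of all 18 low nuclease libraries called 1 receptor higher and 1 lower in the WT. No main test paired libraries by number, and the replicate block was run only as an alternative. In the paper's protocol the pellet and the gradient fractions of a preparation come from the same gradient. The labels do not state whether same-numbered libraries share a preparation, so pairing was judged from the counts alone. With the block, standard enrichment in the FMR1 KO had 646 genes called higher and 16 lower, in place of 1204 and 311. Over 24 pairs r of the deviations was -0.05 to 0.36, 9 were over 0.1, and 12 of 24 libraries went best with their own number. The replicate block called 0 receptors lower in low nuclease occupancy of the FMR1 KO, put Ryr1 in standard enrichment of the FMR1 KO at an edgeR adjusted p of 0.126 and the log2 change of Ryr3 between genotypes in the pellet at 0.0071, where it was -0.0020 without the block.

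With each replicate or library left out, enrichment ranged from -1.20 to 1.69 for Itpr3 in the FMR1 KO with low nuclease (0 to 5 receptors called higher), from -0.54 to 3.20 for Itpr3 in the FMR1 KO standard preparation (0 to 4), from -0.79 to 8.11 for Ryr1 in the WT with low nuclease (1 to 5) and from -1.06 to 0.52 for Itpr2 in the WT standard preparation (0 to 3). Low nuclease occupancy ranged from -0.085 to 1.58 for Itpr3 in the FMR1 KO (0 to 4 called lower) and in the WT from -0.55 to 0.069 for Itpr1, -0.21 to 0.36 for Itpr2 and -1.48 to 5.87 for Ryr1 (0 to 1 called higher, 0 to 2 lower). Between genotypes RNA-seq ranged from -0.23 to 0.16 for Itpr1 and -0.31 to 0.046 for Itpr2, the pellet from -0.42 to 0.17 for Itpr1, -0.21 to 0.024 for Ryr1, -0.42 to 0.079 for Ryr2 and -0.12 to 0.13 for Ryr3, occupancy from -0.34 to 0.20 for Itpr1, -0.16 to 0.22 for Ryr1 and -0.22 to 0.32 for Ryr2, and enrichment from -0.29 to 0.92 for Itpr1 and -0.019 to 1.04 for Ryr2. The causes were not tested. Ryr1 had 13 to 100 and Itpr3 4 to 157 counts per standard RPF library, and the part of depth was not tested.

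Counts of all genes called higher and lower that moved by over 1.5 times, beside those in the text above, were these. Standard enrichment in the WT (2 and 1) was 41 and 129 by library size, 3 and 5 with Cdk8 left out, 10 and 80 with DESeq2, 0 and 0 with the block, 4 lower with all 18 libraries, and up to 1027 and 246 with a library left out. The FMR1 KO (1204 and 311) had 135 and 100, 141 and 22, 646 and 16 with the block, 508 lower with DESeq2, 536 lower with all 18 libraries, 185 lower with TMM and no Cdk8, 153 lower with no filter, and from 3 to 1300 and 0 to 302 with a library left out. With low nuclease, enrichment in the WT (2225 and 1334) had 2088 lower with the block, 1074 and 196 with all 18 libraries, and 137 to 1816 and 12 to 722 with a library left out. The FMR1 KO (1369 and 1824) had 4267 and 4238 lower by library size, 2180 higher with DESeq2, 2515 higher with the block, 861 and 166 with all 18, and 0 to 1108 and 0 to 1007 with a library left out. Low nuclease occupancy in the FMR1 KO (2454 and 1953) was 180 and 15 or 201 and 15 by library size, 3199 lower with DESeq2, 1068 lower with the block, 3750 and 3961 with all 18, 3052 lower without the 3 libraries, and 0 to 3406 and 0 to 2863 with a library left out. In the WT (3880 and 4302) it was 239 and 34 or 263 and 42 by library size, and 2573 to 4682 and 2371 to 4766 with a library left out. Between genotypes DESeq2 called 12 and 12 in RNA-seq (5 and 7), 46 and 20 in the pellet (0 and 2), 36 and 27 in occupancy (8 and 3) and 38 and 3 in enrichment (0 and 0), and library size with Cdk8 counted called 169 and 118 in the pellet (7 and 5 with Cdk8 left out), 8 and 5 in occupancy and 9 and 2 in enrichment. The block called 0 and 0 in the pellet, 6 and 1 in occupancy and 1 and 0 in enrichment, and a fit of all 18 libraries 5 and 0 in occupancy. With a library or replicate left out the counts were 2 to 7 and 6 to 11 in RNA-seq, 0 to 5 and 0 to 6 in the pellet, 6 to 21 and 1 to 10 in occupancy and 0 to 8 and 0 to 4 in enrichment.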
